A study of Mus musculus with 32 samples.

Results

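Microglia of rTg4510 mice were compared with microglia of WT mice at 6 months of age. All libraries labelled with this age and these genotypes were taken, 4 rTg4510 libraries and 4 WT libraries, so that 8 of the 32 libraries of the series are described here. The rTg4510 mice carry human tau with the P301L mutation, which is switched on by a tetracycline transactivator under the Camk2a promoter and is therefore made in forebrain neurons rather than in microglia. Their strain is labelled rTg4510, and that of the WT mice 129/FVB F1, and the mice of both genotypes were female and carried no other label of treatment. The paper describes the WT mice as littermates free of transgenes, so that the genotypes differ both in human tau and in the transactivator. CD11b MicroBeads were used to isolate the cells, and the forebrains of 8 to 10 animals went into each library. A library is therefore a pool and not a mouse, and the spread between libraries is the spread between pools.

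Microglia are the resident macrophages of the brain. In the healthy brain they survey their surroundings with purinergic and chemokine receptors and hold a transcriptional program that depends on TGF-beta and on the factor Sall1. Near amyloid or dying neurons they are known to take on a disease-associated state, in which Trem2 and its adaptor Tyrobp turn on genes for lipid handling, lysosomal digestion and secreted growth factors. The libraries of 6 months belong to an age at which neurons of this model hold tangles and the forebrain is losing cells.

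All values are log2 signals per gene that the authors had normalized to a common median of 5.63, and the 4 values given for a group are those of replicates 1 to 4 in that order. A signal is not scaled to gene length, so levels are compared between libraries and not between genes. Because every library has the same median, a change in the total RNA of a cell cannot be seen, and in a bulk library fewer cells of a type and less RNA per cell cannot be told apart. Values given as a number ± a number are log2 fold changes, rTg4510 minus WT, with the SE of the fit. The label of the cells was checked against markers. The linear signals of 15 microglia markers added up to 35620 to 42490 in the rTg4510 libraries and to 40330 to 44370 in the WT libraries, against 51.2 to 138 for 6 neuronal markers over all 8 libraries. The next largest sum after microglia was that of 7 B cell markers, 5877 to 7804 over all 8 libraries. The lists hold different genes, so that their sums do not measure shares of cells. Libraries of the same genotype correlated across genes with r of 0.955 to 0.966 (12 pairs) and libraries of different genotypes with r of 0.902 to 0.926 (16 pairs). The rTg4510 libraries held more genes at their lowest value (217 to 290 genes) than the WT libraries (119 to 166 genes). In linear signal, the 10 leading genes held 30.7% to 34.2% of an rTg4510 library and 44.4% to 46.4% of a WT library, for the most part through Malat1, a nuclear long non-coding RNA.

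At 6 months 3689 of 18588 genes (19.8%) were DEGs, that is, genes with a false discovery rate (FDR, limma's linear model with Benjamini-Hochberg adjustment over all genes) below 0.05 and an absolute fold change above 1.5. Of these, 2101 genes (11.3% of all genes) were up-regulated and 1588 (8.54%) were down-regulated in rTg4510. The change was larger than 2 fold for 1236 up-regulated and 800 down-regulated genes, and larger than 8 fold for 48 up-regulated and 8 down-regulated genes. The groups did not overlap for 6101 genes (32.8%), and 3274 of the DEGs were among them. Over all genes the median log2 fold change was -0.04. Up-regulated genes were commonest among genes of large signal. In the tenth of genes with the largest mean signal 565 rose and 142 fell, whereas in the tenth with the smallest signal 82 rose and 208 fell. The median log2 fold changes of these sets were 0.19 and -0.51.

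**Figure D1:**
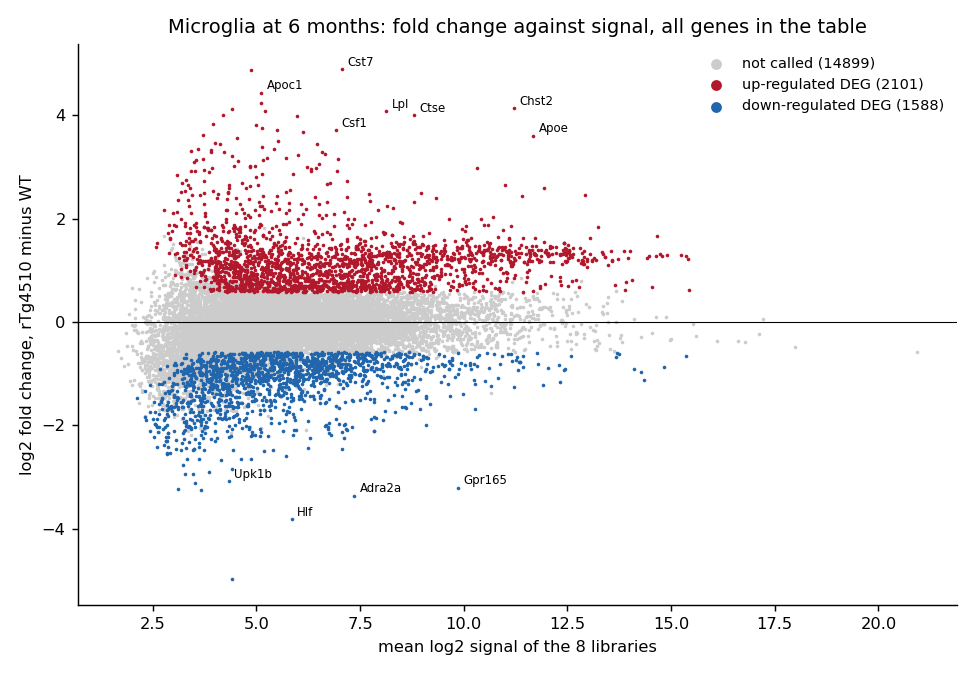
Log2 fold change at 6 months (rTg4510 minus WT, vertical axis) against the mean log2 signal of the 8 libraries (horizontal axis), 1 point per gene. The 2101 up-regulated DEGs are red, the 1588 down-regulated DEGs blue and all other genes grey, and 11 genes described in the text are labelled.

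The 12 largest increases and the 12 largest decreases were taken among protein-coding DEGs away from the floor of the libraries whose groups did not overlap, where away from the floor means that neither genotype had all of its libraries near it, so that the absence of overlap in these 24 genes is a condition of their choice. The largest increase was that of Cst7, which encodes cystatin F, an inhibitor of lysosomal cysteine proteases. Cst7 read 9.40, 9.49, 9.64 and 9.50 in the rTg4510 libraries and 5.04, 4.57, 4.89 and 3.99 in the WT libraries. The groups lay far apart, and the log2 fold change was 4.88 ± 0.21 (SE), or 29.5 fold (FDR 3.36e-13). Next came Apoc1, an apolipoprotein of small lipoprotein particles that lies beside Apoe. Apoc1 read 7.28, 7.48, 7.55 and 7.04 in rTg4510 and 3.07, 2.57, 3.61 and 2.36 in WT, a log2 fold change of 4.44 ± 0.23. Gpnmb, a transmembrane glycoprotein of lysosome-rich macrophages, rose by 4.23 ± 0.29, from 3.69, 2.70, 3.12 and 2.47 to 7.10, 7.24, 7.37 and 7.20. Here too every rTg4510 library lay above every WT library.

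Lpl, the lipoprotein lipase that releases fatty acids from triglycerides, read 10.01, 10.16, 10.19 and 10.33 in rTg4510 and 6.16, 5.74, 6.15 and 6.35 in WT (4.07 ± 0.15). Ctse, an aspartic protease of endosomes, read 10.85, 10.79, 10.66 and 10.87 and 6.90, 6.43, 6.95 and 6.91 (4.00 ± 0.14). Apoe, the main lipid carrier of the brain, read 13.49, 13.49, 13.53 and 13.42 and 9.95, 9.64, 10.05 and 9.87 (3.6 ± 0.13, 12.2 fold). The groups did not overlap for any of these 3 genes, as their choice required. Chst2, a sulfotransferase that adds sulfate to N-acetylglucosamine, read 13.20, 13.25, 13.27 and 13.35 in rTg4510 and 9.35, 8.77, 9.02 and 9.42 in WT (4.13 ± 0.15).

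The remaining members of these 12 genes encode secreted or membrane proteins. Csf1, the ligand of the receptor on which microglia depend for survival, read 8.65, 8.45, 8.88 and 9.13 in rTg4510 and 4.87, 4.36, 5.26 and 5.79 in WT (3.71 ± 0.25). Spp1, the secreted phosphoprotein osteopontin, read 7.87, 7.97, 8.01 and 7.98 and 4.47, 3.75, 4.43 and 4.46 (3.68 ± 0.18). Cxcl14, a chemokine, read 6.90, 6.86, 7.54 and 6.77 and 3.58, 3.47, 2.48 and 3.52 (3.75 ± 0.29). As their choice required, none of these 3 genes showed an overlap of the groups. Replicate 3 of WT was the lowest of its group for Cxcl14. Fam20c, the kinase of secreted proteins such as osteopontin, rose by 3.71 ± 0.19 and Fxyd6, a regulator of the sodium pump, by 3.81 ± 0.39.

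Some genes could not be given a fold because 1 genotype was near the floor in all of its libraries, the floor being a level up to 3 counts above a library's smallest value. A signal was taken as the log2 of a count plus 1.5, shifted per library, with the smallest value standing for no reads. Counts were not available to check this conversion, and the bounds below depend on it. Of the 3689 DEGs, 198 had 1 genotype near this floor, WT for 91 and rTg4510 for 107. Lox, the lysyl oxidase that cross-links collagen and elastin, read 7.14, 7.43, 7.38 and 7.23 in rTg4510 and 2.70, 2.04, 2.81 and 2.14 in WT. Against a floor of 3 counts per library Lox was at least 16.5-fold higher in rTg4510. Minar1 was at least 9.39-fold higher, and Dkk2, a secreted modulator of Wnt signalling, at least 7.76-fold higher. In the other direction the rTg4510 libraries were near the floor, and Gabrb1, a GABA-A receptor subunit, was at least 3.38-fold lower, Ly6a2 at least 3.10-fold lower and the metalloprotease-like gene Adam11 at least 3.89-fold lower. Adam11 (FDR 0.0796) and Ly6a2 (FDR 0.0546) were not called with a replicate block in the 6-month libraries alone. That fit, to which later paragraphs return, leaves 3 residual degrees of freedom, against 20 in the main fit.

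**Figure D2:**
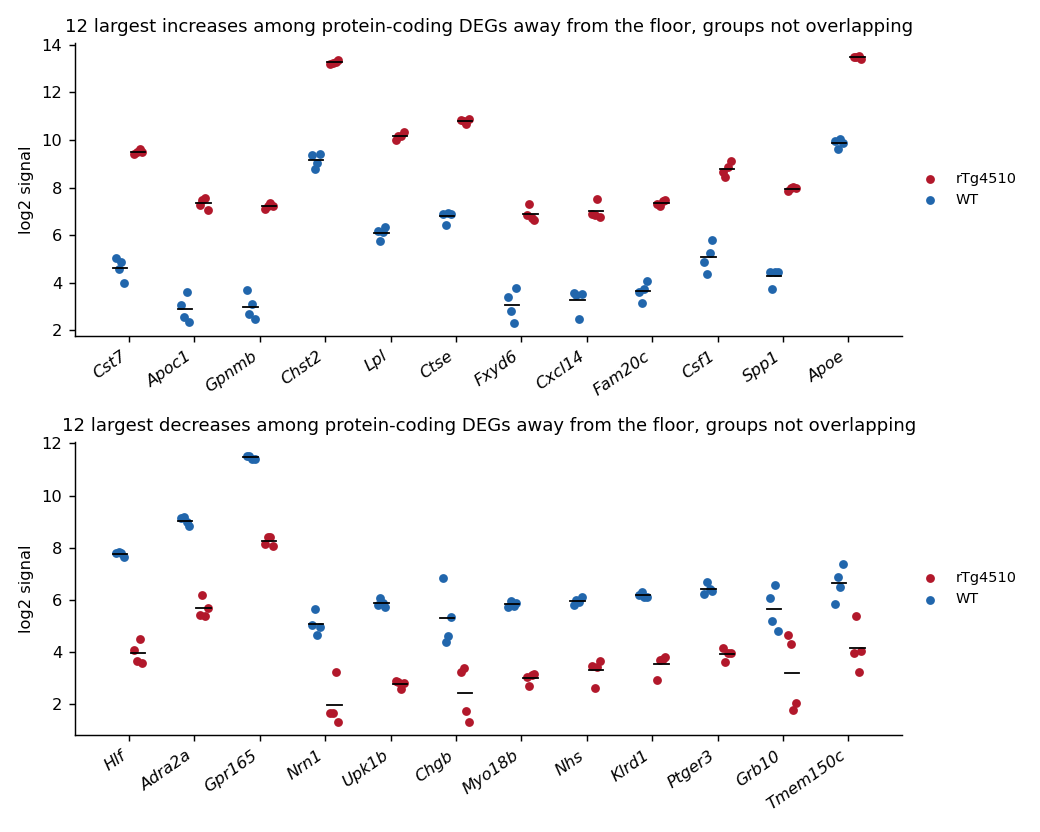
Log2 signal (vertical axis) of the 12 largest increases (upper panel) and the 12 largest decreases (lower panel) among protein-coding DEGs away from the floor whose groups do not overlap, 1 point per library, rTg4510 red and WT blue, with a black bar at the mean of each group. Of these 24 genes, Grb10 and Chgb have the widest range within a genotype.

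Of a list of 38 genes of the disease-associated state, 37 rose and 0 fell, with a median log2 fold change of 1.97. The list had been chosen with results of these libraries known, so that its direction is not independent of them. Besides the genes above, Itgax (CD11c, an integrin subunit of complement receptor 4) rose by 3.43 ± 0.095, Axl (a receptor for cells that expose phosphatidylserine) by 3.25 ± 0.16 and Clec7a (dectin-1) by 3.14 ± 0.21. Tyrobp, the adaptor, rose by 1.31 ± 0.068, whereas Trem2, the receptor that pairs with it, rose by 0.65 ± 0.071 only. Trem2 read 11.05, 11.13, 11.26 and 11.11 in rTg4510 and 10.39, 10.57, 10.49 and 10.52 in WT. The single member that did not pass was Cd74, the invariant chain of MHC class II, at 0.56 ± 0.19. With quantile normalization in place of the authors' median normalization 35 members rose, and Trem2 (0.22) and B2m (0.42) were no longer called.

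Genes of the homeostatic state behaved unevenly. Of 30 such genes 8 fell, 2 rose and 20 were not called, with a median of -0.34. The largest fall was that of Slc2a5, the fructose transporter GLUT5, which read 4.62, 4.47, 4.40 and 4.82 in rTg4510 and 6.79, 6.87, 6.53 and 6.54 in WT (-2.11 ± 0.14, FDR 2.71e-10). Nav3, a neuron navigator protein, fell with -1.13 ± 0.100 and the ADP receptor P2ry13 with -1.08 ± 0.098, while the sister receptor P2ry12 was at -0.30 ± 0.095 and did not pass. Sall1, the factor that sets microglial identity, read 9.0, 9.26, 9.03 and 9.09 in rTg4510 and 9.94, 10.12, 9.91 and 9.84 in WT (-0.86 ± 0.099). Tmem119 was at -0.78 ± 0.10 and Selplg, the ligand of P-selectin, at -0.90 ± 0.084. The receptor genes Csf1r (-0.13 ± 0.058), Cx3cr1 (-0.57 ± 0.097) and Mertk (-0.31 ± 0.059) were lower by less than 1.5 fold. C1qa and Trem2 were the members that rose. Many of these genes have a large signal, and the count depended on the scaling: after quantile normalization 15 fell and 0 rose. C1qa was not called with a replicate block in the 6-month libraries alone (FDR 0.0800), after quantile normalization (0.31) or with all 32 libraries in the fit.

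Apolipoproteins and lipoprotein handling changed far more than cholesterol synthesis. Of 20 genes of the former 11 rose and 0 fell (median 0.68). Apoc2, the cofactor of lipoprotein lipase, was at least 4.05-fold and its neighbour Apoc4 at least 5.04-fold higher, both from a WT level near the floor. Nceh1, which hydrolyses cholesteryl ester, rose by 1.92 ± 0.10, Npc2, which moves cholesterol out of the lysosome, by 1.52 ± 0.076, Soat1, which esterifies cholesterol, by 1.18 ± 0.064 and the exporter Abcg1 by 0.87 ± 0.087. The related exporter Abca1 (0.49 ± 0.046, FDR 2.72e-08) did not pass the fold threshold. Of 26 genes of cholesterol synthesis and sterol sensing 2 rose and 1 fell (median 0.11), where over all genes 11.3% rose and 8.54% fell. Dhcr7, an enzyme of the last steps of the pathway, rose by 0.59 ± 0.13. Of 21 genes of fatty acid synthesis and lipid droplets 5 rose, among them the fatty acid binding proteins Fabp5 (3.34 ± 0.36) and Fabp3 (at least 3.90-fold higher), Acaca, which makes malonyl-CoA, Dgat2, which makes triglyceride (1.76 ± 0.22), and the droplet coat protein Plin2 (0.78 ± 0.15). Fasn did not pass (0.28 ± 0.076). Leaving out 1 library ended the call of Dhcr7 (without rTg4510 replicate 3 or 4 or WT replicate 1, 2 or 4, 0.52 to 0.58). Plin2 (FDR 0.0626) was not called with a replicate block in the 6-month libraries alone or with all 32 libraries in the fit.

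Lysosomal genes rose as a broad but graded set, and 0 members of the 3 lists fell. Of 17 cathepsins and cystatins 10 rose (median 0.91). After Cst7 and Ctse these were led by Ctsl (1.78 ± 0.073), the cytosolic inhibitor Cstb (1.66 ± 0.13) and Ctsb (1.62 ± 0.084), while Cst3, which encodes cystatin C, was at 0.06 ± 0.067 and Lgmn at -0.06 ± 0.045. Of 30 lysosomal hydrolases 14 rose (median 0.54). Gla, the alpha-galactosidase that is missing in Fabry disease, read 7.54, 7.57, 7.84 and 7.91 in rTg4510 and 5.54, 5.64, 5.48 and 5.92 in WT (2.07 ± 0.15). Man2b1 rose by 1.21 ± 0.064, Glb1 by 1.13 ± 0.085 and Hexa by 1.0 ± 0.058. Of 30 genes of the vacuolar ATPase and the lysosomal membrane 11 rose (median 0.40). Cd63 rose by 2.48 ± 0.076, Lamp1 by 0.94 ± 0.048 and the proton channel subunit gene Atp6v0c by 1.19 ± 0.099. The osteoclast-type subunit gene Atp6v0d2 was at least 2.90-fold higher against a WT level near the floor, while its ubiquitous counterpart Atp6v0d1 was at 0.41 ± 0.070. Of the factors that drive lysosomal genes Mitf rose (0.78 ± 0.067), and Tfeb (0.13 ± 0.13) and Tfe3 (-0.16 ± 0.083) did not pass. Lamp1 (0.48) was not called after quantile normalization.

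Chemokines moved in both directions. Of 24 chemokine and receptor genes 11 rose and 3 fell (median 0.71). After Cxcl14 the largest increases were those of the B-cell attractant Cxcl13 (2.93 ± 0.22), the receptor Cxcr4 (2.49 ± 0.27) and the chemokines Ccl3 and Ccl4. Ccl3 read 13.97, 14.09, 14.63 and 13.95 in rTg4510 and 11.49, 10.82, 12.42 and 12.05 in WT (2.46 ± 0.30). Ccr6 fell (-0.81 ± 0.11), as did Ccl24 (-0.71 ± 0.22) and Ccl7 (-0.85 ± 0.29), while the monocyte attractant Ccl2 was at -0.65 ± 0.27 and not called. Of 24 genes of interleukin-1, TNF and their receptors 12 rose and 0 fell (median 0.60). Il1b read 8.40, 8.40, 8.89 and 7.88 in rTg4510 and 6.14, 5.80, 6.04 and 5.96 in WT (2.41 ± 0.24), and its antagonist Il1rn rose by 3.01 ± 0.33. Tnf rose by 2.07 ± 0.35 and the decoy receptor gene Tnfrsf11b, which encodes osteoprotegerin, was at least 6.16-fold higher. Il6 (0.23 ± 0.24), Il10 (0.25 ± 0.49) and Il18 (-0.50 ± 0.090) did not pass. Single libraries decided the calls of Ccl24 (without WT replicate 1, -0.56) and Ccl7 (without rTg4510 replicate 4 or WT replicate 1, 3 or 4, -0.80 to -0.65). Ccl24 (FDR 0.0875) and Ccl7 (FDR 0.169) were not called with a replicate block in the 6-month libraries alone. Ccl24 was not called with all 32 libraries in the fit.

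Of 19 genes of the NF-kappaB pathway 4 rose, and all of these encode inhibitors or atypical regulators of the pathway. They were Tnfaip3, which encodes A20 (1.72 ± 0.25), Nfkbia, which encodes the inhibitor that holds the dimer in the cytoplasm (1.69 ± 0.28), Bcl3 (1.41 ± 0.19) and Nfkbiz (1.35 ± 0.27). Nfkbia read 8.89, 8.79, 9.36 and 9.39 in rTg4510 and 7.13, 6.77, 7.87 and 7.90 in WT, without overlap. The genes of the DNA-binding subunits lay between -0.13 ± 0.069 (Rel) and 0.50 ± 0.095 (Nfkb2), and none was called. Nfkbia and Tnfaip3 are themselves known targets of NF-kappaB.

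Of 21 genes of MHC class I presentation 8 rose and 0 fell (median 0.37). H2-D1 read 7.44, 7.49, 7.53 and 7.55 in rTg4510 and 6.17, 5.83, 6.29 and 6.03 in WT (1.42 ± 0.12), H2-Q7 rose by 1.21 ± 0.26, H2-K1 by 1.14 ± 0.10 and the shared light chain B2m by 0.82 ± 0.069. The class I genes H2-T23 (0.33 ± 0.083) and H2-M3 (0.48 ± 0.15) and the peptide transporter genes Tap1 (-0.01 ± 0.078) and Tap2 (-0.06 ± 0.11) did not pass. The class I genes are near-identical copies, and how reads that match several of them were counted is not given in the sources used here, so that the split between H2-D1, H2-K1, H2-Q6 and H2-Q7 is uncertain. Without replicate 2 of both genotypes 5 members rose. Of 12 genes of MHC class II presentation 3 rose, H2-DMa (0.95 ± 0.11), Ifi30 (0.92 ± 0.091) and Ctss (0.81 ± 0.053), and the class II chains H2-Aa (0.25 ± 0.17) and H2-Ab1 (0.27 ± 0.17) did not. The count was 5 without WT replicate 1 and 5 without WT replicate 4. H2-Q6 (FDR 0.0776) and H2-Q7 (FDR 0.0636) were not called with a replicate block in the 6-month libraries alone. Ctss (0.15) was not called after quantile normalization.

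The promoters of these 2 groups of genes are shown because the NF-kappaB consensus motif, searched on both strands, lay in several of them. In the RefSeq promoters of GRCm38.p6, from 250 bases before to 50 bases after a gene's start, the motif was found for 712 of 11802 tested genes (6.03%). It was found for 7 of the 19 genes of the MHC class I list that have a promoter in the table, for 7 of 15 genes of the NF-kappaB list and for 5 of 17 chemokine genes. By call, it was found for 6 of 7 up-regulated and 1 of 12 uncalled genes of the MHC class I list, for 3 of 3 and 4 of 12 of the NF-kappaB list, and for 2 of 9 and 2 of 7 chemokine genes besides the down-regulated Ccr6. In H2-K1, H2-D1, H2-Q4, H2-Q6 and H2-Q7 the motif lies in stretches that are close copies, so that their matches are not independent. The stretches printed are all from up-regulated genes. Over all genes it was found for 9.02% of the up-regulated and 5% of the down-regulated DEGs. The search was made after the changes of these genes were known. A match is a description of the letters and not a site that was measured. Stretches before the start, 80 bases or, for Cxcl10, 110 bases long, are printed 5′ to 3′ on the strand of the gene, with the motif in capitals.
B2m (chr2:122147516-122147595, + strand): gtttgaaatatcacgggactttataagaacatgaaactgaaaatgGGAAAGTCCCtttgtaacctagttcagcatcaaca
H2-K1 (chr17:34000423-34000502, - strand): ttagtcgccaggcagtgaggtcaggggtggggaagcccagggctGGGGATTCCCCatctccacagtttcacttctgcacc
Nfkbia (chr12:55492648-55492727, - strand): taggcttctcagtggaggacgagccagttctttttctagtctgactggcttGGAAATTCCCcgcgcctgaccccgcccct
Cxcl10 (chr5:92348958-92349067, - strand): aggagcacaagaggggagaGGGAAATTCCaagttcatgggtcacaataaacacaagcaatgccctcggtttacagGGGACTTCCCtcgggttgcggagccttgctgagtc
Cxcl10, a target of both interferon and NF-kappaB, holds the motif at 2 places and rose by 1.42 ± 0.40. Cxcl10 (FDR 0.0781) was not called with a replicate block in the 6-month libraries alone.

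Interferon response genes rose in part. Of 38 genes 12 rose and 0 fell (median 0.52), and the largest after Cxcl10 were Ifi44 (1.0 ± 0.16) and Isg15 (0.94 ± 0.36). Ifitm3 was at 0.10 ± 0.16 and not called. The count moved when single libraries were left out. It was 7 without rTg4510 replicate 1, 6 without rTg4510 replicate 2, 6 without WT replicate 2, 4 without replicate 2 of both genotypes and 4 with all 32 libraries in the fit. The call depended on a single library for Isg15 (without rTg4510 replicate 1, 2 or 3 or WT replicate 1, 2 or 4, 0.69 to 1.02). Isg15 (FDR 0.119) was not called with a replicate block in the 6-month libraries alone or with all 32 libraries in the fit.

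Receptors of innate immunity split by gene, where over all genes 11.3% rose and 8.54% fell. Of 22 complement genes 6 rose and 2 fell (median 0.12). C3, the central component, rose by 1.58 ± 0.13, its receptor C3ar1 by 1.63 ± 0.085 and C1qb by 0.79 ± 0.088, while Itgam, which encodes the CD11b subunit used for the capture of the cells, fell, as did C5ar2 (-0.60 ± 0.17). Itgam read 9.02, 9.05, 9.15 and 9.19 in rTg4510 and 9.66, 9.75, 9.69 and 9.80 in WT (-0.62 ± 0.054). Of 25 Toll-like receptors and adaptors 4 rose and 2 fell (median -0.02), numbers near the shares over all genes. Tlr2 rose by 1.59 ± 0.10, the co-receptor gene Cd14 by 1.21 ± 0.14 and Tlr1, whose product pairs with that of Tlr2, by 1.06 ± 0.100, whereas Tlr5, the flagellin receptor, fell (-1.53 ± 0.15), as did Tlr3 (-0.92 ± 0.095), and Tlr4 was at -0.41 ± 0.11. Of 32 Fc receptors, Siglecs and lectins 10 rose and 3 fell (median 0.10). Cd22, an inhibitory Siglec best known from B cells, read 6.59, 6.74, 6.72 and 6.89 in rTg4510 and 3.53, 3.31, 3.56 and 3.98 in WT (3.14 ± 0.18). Lgals3 rose by 2.87 ± 0.21, Fcgr4 by 2.07 ± 0.15 and Siglecf by 1.48 ± 0.14, whereas Siglecg (-2.07 ± 0.17) and Siglece (-0.78 ± 0.11) fell. Without rTg4510 replicate 3 the number of chemokine genes that fell was 5. After quantile normalization 6 chemokine genes, 4 Toll-like receptor genes and 5 genes of the Siglec list fell. Leaving out 1 library ended the call of C5ar2 (without rTg4510 replicate 1 or 4 or WT replicate 3 or 4, -0.58 to -0.49). C5ar2 (FDR 0.130) was not called with a replicate block in the 6-month libraries alone. C1qb (0.31) was not called after quantile normalization.

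**Figure D3:**
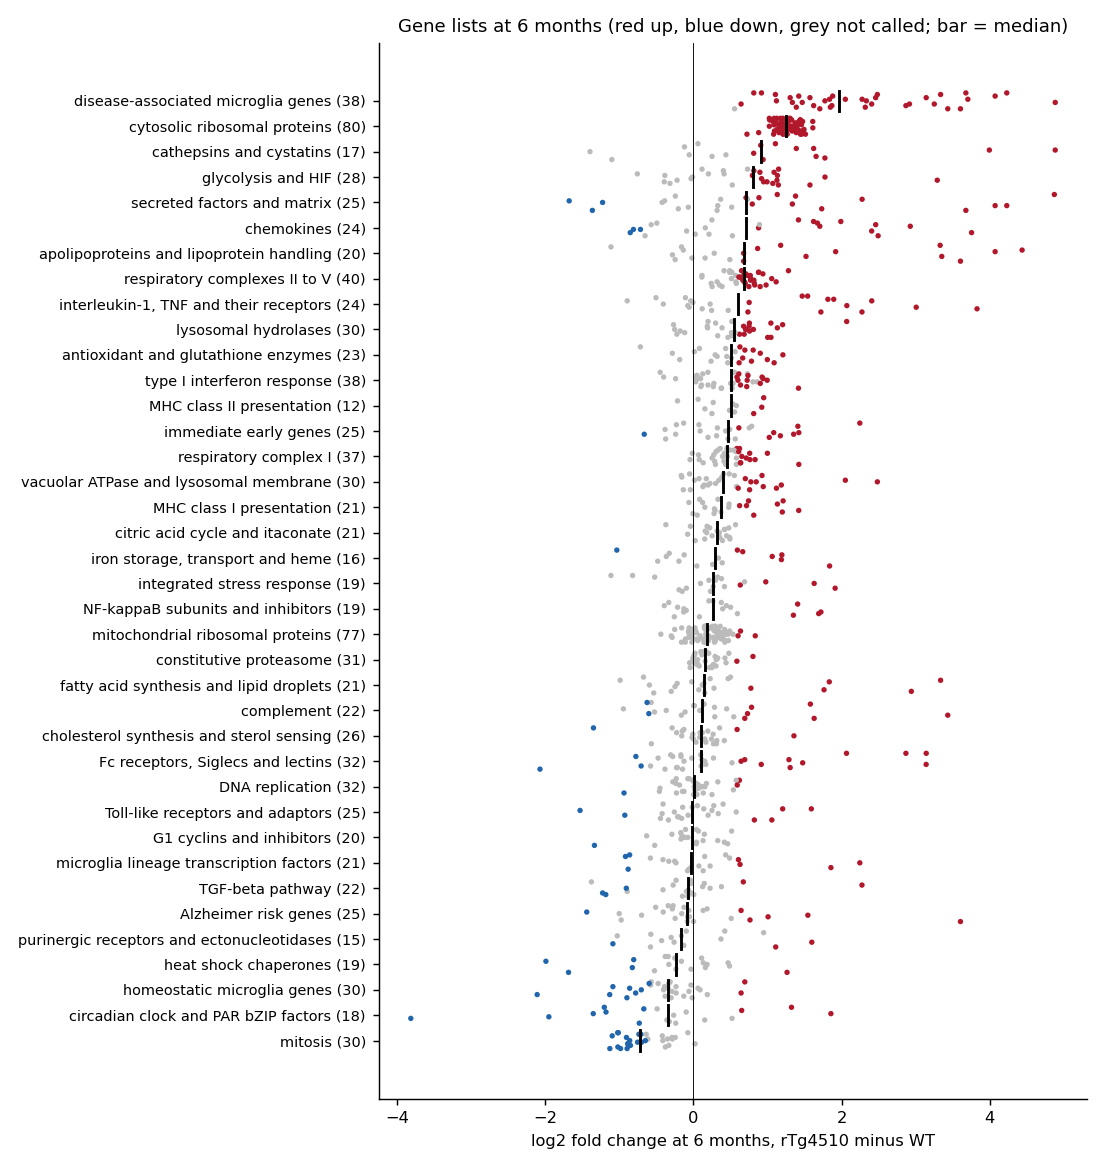
Log2 fold change at 6 months (horizontal axis) of the members of 38 gene lists with at least 10 measured genes, ordered by their median (black bar), with the number of measured genes in parentheses. Red points are up-regulated DEGs, blue points down-regulated DEGs and grey points were not called. The disease-associated list has the highest median (1.97) and mitosis the lowest (-0.72).

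Every one of the 80 cytosolic ribosomal protein genes rose, with a median log2 fold change of 1.25 and a range from 0.72 (Rpl34) to 1.61 (Rpl32). In all 80 genes the 4 rTg4510 libraries lay above the 4 WT libraries. Rpl10a, a protein of the large subunit, read 7.54, 7.64, 7.80 and 7.56 in rTg4510 and 5.82, 5.79, 6.26 and 6.23 in WT (1.61 ± 0.12). Among 77 mitochondrial ribosomal protein genes, by contrast, 3 rose and 0 fell (median 0.19), led by Mrpl52 (0.84 ± 0.13) and Mrpl17 (0.64 ± 0.13). Among 31 genes of the constitutive proteasome Psmb6 (0.81 ± 0.10) and Psmb4 (0.59 ± 0.052) rose (median 0.16). Over all genes 11.3% rose and 8.54% fell. Ribosomal protein genes have many processed pseudogenes of near-identical sequence. Of 185 rows that are named as such pseudogenes 153 rose and 1 fell, with a median of 1.2, so that reads of the parent genes and of the copies cannot be told apart in these values. The part that the smaller share of Malat1 in rTg4510 libraries has in these values was not tested. Single libraries decided the calls of Mrpl17 (without rTg4510 replicate 3 or WT replicate 2, 0.55) and Psmb4 (without rTg4510 replicate 3 or 4 or WT replicate 1 or 4, 0.55 to 0.58). Mrpl17 (FDR 0.116) was not called with a replicate block in the 6-month libraries alone. Mrpl17 (0.56) and Psmb4 (0.46) were not called after quantile normalization. Mrpl17 and Psmb6 were not called with all 32 libraries in the fit.

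Respiratory chain genes rose in part. Of 40 genes of complexes II to V 25 rose and 0 fell (median 0.68), led by Cox4i1 (1.28 ± 0.081), Cox8a (1.12 ± 0.10) and Atp5e (1.06 ± 0.086). Of 37 genes of complex I 12 rose (median 0.45), led by Ndufa1 (1.42 ± 0.12) and Ndufa2 (1.0 ± 0.12). The flavoprotein gene Sdha (0.25 ± 0.062), Ndufs1 (0.07 ± 0.060) and Uqcrc1 (0.12 ± 0.097) were not called. Of 21 genes of the citric acid cycle 0 were called (median 0.32). For 11 of them all rTg4510 libraries lay above all WT libraries, against 3379 of all 18588 genes. Sdhb, at 0.57 ± 0.080, was the closest to the threshold of 1.5 fold.

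Of 28 genes of glycolysis and of the HIF pathway 15 rose and 0 fell (median 0.81). The increase was 0.99 ± 0.065 for the isomerase Gpi1, 1.15 ± 0.058 for Aldoa, 1.15 ± 0.091 for Gapdh, 1.14 ± 0.088 for Pgk1, 0.95 ± 0.11 for Pgam1, 0.82 ± 0.073 for Eno1, 1.07 ± 0.073 for Pkm, 0.90 ± 0.071 for Ldha and 0.92 ± 0.16 for the lactate exporter Slc16a3. The hexokinases Hk1 (-0.22 ± 0.090), Hk2 (0.12 ± 0.10) and Hk3 (-0.38 ± 0.11) and the glucose transporter Slc2a1 (0.53 ± 0.11) did not pass. The phosphofructokinase genes Pfkl (0.41 ± 0.096), Pfkm (-0.01 ± 0.15) and Pfkp (-0.32 ± 0.19) were not called either. Hif1a, the oxygen-regulated factor of these genes, read 9.44, 9.56, 9.61 and 9.72 in rTg4510 and 7.87, 7.93, 8.09 and 8.14 in WT (1.57 ± 0.071). Egln3, a prolyl hydroxylase that marks HIF for degradation and is itself a HIF target, was at least 6.10-fold higher, whereas Egln1 was at 0.20 ± 0.12 and Vegfa at 0.73 ± 0.29. Eno2, an enolase best known from neurons, rose by 1.78 ± 0.25. Pgk1 read 6.38, 6.13, 6.18 and 6.58 in rTg4510 and 5.21, 5.12, 5.24 and 5.16 in WT. Gapdh and Pgk1 have pseudogene copies, and their values carry the same uncertainty as those of the ribosomal proteins. Slc16a3 (FDR 0.0940) was not called with a replicate block in the 6-month libraries alone.

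Promoters of glycolytic genes are shown because they hold the letters ACGTGC, read on both strands. These letters are a form of the element that HIF is known to bind. Other forms were not searched for and may lie in promoters counted as without the letters, or outside the capitals. The letters can overlap the E-box CACGTG, and they do so in Bnip3 but in none of the other stretches printed here. They were found in 1088 of 11802 promoters (9.22%), in 11 of 27 genes of this list, in 8 of its 15 up-regulated members with a promoter and in 3 of its 12 members that were not called. Over all genes they were found for 8.55% of the up-regulated and 8.56% of the down-regulated DEGs. This search was also made with the changes known. The motif, in capitals, begins 132 bases before the start of Pgk1, 35 before that of Ldha, 60 before that of Pfkfb3 and 109 before that of Bnip3.
Pgk1 (chrX:106186919-106186998, + strand): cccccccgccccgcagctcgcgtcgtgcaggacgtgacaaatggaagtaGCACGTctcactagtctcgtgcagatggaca
Ldha (chr7:46845720-46845799, + strand): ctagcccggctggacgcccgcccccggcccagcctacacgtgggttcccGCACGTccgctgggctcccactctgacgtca
Pfkfb3 (chr2:11553959-11554038, - strand): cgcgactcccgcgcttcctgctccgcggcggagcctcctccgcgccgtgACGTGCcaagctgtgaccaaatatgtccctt
Pgam1 (chr19:41911708-41911787, + strand): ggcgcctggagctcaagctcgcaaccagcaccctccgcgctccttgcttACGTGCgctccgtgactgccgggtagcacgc
Bnip3 (chr7:138909583-138909662, - strand): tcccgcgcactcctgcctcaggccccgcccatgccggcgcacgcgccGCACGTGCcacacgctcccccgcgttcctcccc
Pfkfb3, which makes the activator of phosphofructokinase, rose by 1.09 ± 0.19, and Bnip3, a mitophagy receptor, by 0.80 ± 0.14. Bnip3 (FDR 0.107) was not called with a replicate block in the 6-month libraries alone.

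Genes of redox defence and iron storage rose beside these. Of 23 antioxidant and glutathione genes 10 rose and 0 fell (median 0.52), among them Srxn1 (1.21 ± 0.22), Prdx1 (1.09 ± 0.097), Txn1 (1.0 ± 0.13) and the factor Nfe2l2 (0.62 ± 0.061), whereas the glutathione synthesis genes Gclc (-0.28 ± 0.087) and Gclm (-0.18 ± 0.16) were not called. Of 16 iron genes 6 rose and 1 fell (median 0.30). The ferritin chain Fth1 read 14.08, 14.04, 14.29 and 14.20 in rTg4510 and 12.17, 12.01, 12.51 and 12.56 in WT (1.84 ± 0.11), Ftl1 rose by 1.2 ± 0.15 and the phagosomal metal transporter Slc11a1 by 1.06 ± 0.071. The member that fell was Slc40a1, which encodes ferroportin, the only known iron exporter. Slc40a1 read 6.77, 6.86, 6.73 and 6.71 in rTg4510 and 7.91, 7.84, 7.64 and 7.82 in WT (-1.03 ± 0.083, FDR 2.90e-09), without overlap. Tfrc, the transferrin receptor, was at -0.48 ± 0.13. Of 19 genes of the integrated stress response 4 rose, led by Chac1 (1.91 ± 0.48) and Psat1 (1.63 ± 0.22), and in the fit with a replicate block 2 rose. Atf4 (0.23 ± 0.18) and Ddit3 (0.27 ± 0.17) did not pass. Chac1 (FDR 0.0846) was not called with a replicate block in the 6-month libraries alone. Nfe2l2 was not called after quantile normalization (0.23) or without replicate 2 of both genotypes (0.58).

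Genes of mitosis were lower in rTg4510 at this age. Of 30 mitosis genes 18 fell and 0 rose (median -0.72), and 29 had a negative log2 fold change. Nusap1, a spindle protein gene, fell by the most after Mki67 (-1.09 ± 0.35). Mki67, which marks cycling cells, read 4.30, 4.16, 4.23 and 4.18 in rTg4510 and 5.19, 5.34, 5.40 and 5.44 in WT (-1.13 ± 0.14, FDR 1.24e-06). The groups did not overlap, and they did not for Top2a (-0.90 ± 0.18), Kif11 (-0.89 ± 0.19) and Ccna2 (-0.85 ± 0.20) either. Cdk1 was at 0.02 ± 0.31. The signals of these genes are low, and the count was 7 after quantile normalization, 10 without replicate 2 of both genotypes and 6 in a fit of the 6-month libraries alone with a replicate block. Of 32 DNA replication genes 2 rose and 1 fell (median 0.02), where over all genes 11.3% rose and 8.54% fell. Pcna rose by 0.62 ± 0.100 and the licensing factor Cdt1 by 0.59 ± 0.22, and the ribonucleotide reductase gene Rrm2 fell (-0.94 ± 0.31). Of 20 genes of G1 cyclins and inhibitors the cyclin gene Ccnd1 alone was called (-1.33 ± 0.12). With a replicate block the FDR of Cdt1 was 0.0562 and that of Rrm2 0.0762, so that neither was called. The calls depended on a single library for Nusap1 (without rTg4510 replicate 2 or 3 or WT replicate 4, -1.01 to -0.90), Pcna (without rTg4510 replicate 3 or WT replicate 1 or 2, 0.57), Cdt1 (without rTg4510 replicate 1, 2, 3 or 4 or WT replicate 1 or 2, 0.40 to 0.63) and Rrm2 (without rTg4510 replicate 2 or WT replicate 3 or 4, -0.86 to -0.82). Cdt1 (FDR 0.195), Nusap1 (FDR 0.0868) and Top2a (FDR 0.0795) were not called with a replicate block in the 6-month libraries alone. Nusap1 (-0.83), Pcna (0.56) and Rrm2 (-0.77) were not called after quantile normalization. Cdt1 and Rrm2 were not called with all 32 libraries in the fit.

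The largest decrease of a protein-coding gene away from the floor was that of Hlf, a PAR bZIP transcription factor whose level follows the circadian clock. Hlf read 4.06, 3.66, 4.49 and 3.58 in rTg4510 and 7.79, 7.83, 7.79 and 7.63 in WT. The WT libraries lay within a narrow band, the rTg4510 libraries were all far below it, and the log2 fold change was -3.81 ± 0.21 (FDR 1.52e-11). Adra2a, the alpha-2A adrenergic receptor, read 5.43, 6.18, 5.36 and 5.70 and 9.14, 9.19, 9.0 and 8.82 (-3.37 ± 0.20). Gpr165, an orphan G protein-coupled receptor, read 8.16, 8.40, 8.40 and 8.06 and 11.50, 11.54, 11.42 and 11.40 (-3.21 ± 0.15). Both receptors fell without overlap of the groups, as their choice required. Among genes of other kinds the pseudogene Gm11524 was lower still (-4.98 ± 0.54), with 3.77, 1.23, 1.36 and 1.31 in rTg4510 and 6.21, 7.35, 6.11 and 7.92 in WT. Gm11524 (FDR 0.0594) was not called with a replicate block in the 6-month libraries alone.

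Other decreases touched receptors, adaptors and granule proteins. Upk1b, a tetraspanin of the urothelial plaque, read 2.89, 2.85, 2.60 and 2.82 in rTg4510 and 5.82, 6.08, 5.87 and 5.71 in WT (-3.08 ± 0.16). Klrd1, an NK cell receptor chain, read 2.93, 3.70, 3.72 and 3.82 and 6.18, 6.32, 6.12 and 6.12 (-2.64 ± 0.19), and the prostaglandin E receptor Ptger3 read 4.15, 3.63, 3.98 and 3.96 and 6.23, 6.69, 6.42 and 6.35 (-2.50 ± 0.18). For none of these 3 genes did the groups overlap, which was a condition of their choice. Nrn1, which encodes neuritin (-3.11 ± 0.48), and Chgb, a granin of secretory vesicles (-2.89 ± 0.77), are genes of neurons and endocrine cells, and their libraries were widely spread. Chgb read 3.21, 3.38, 1.73 and 1.31 in rTg4510 and 6.86, 4.40, 4.62 and 5.33 in WT. Grb10, an adaptor that dampens insulin receptor signalling, read 4.66, 4.29, 1.78 and 2.05 and 6.09, 5.18, 6.59 and 4.82 (-2.48 ± 0.67), where replicates 3 and 4 of rTg4510 lay well below replicates 1 and 2. The smallest values of the rTg4510 libraries were 1.23 to 1.66, so that single libraries of Chgb and Grb10 lay close to the floor. Tmem150c, Myo18b and Nhs were at -2.47 ± 0.49, -2.83 ± 0.13 and -2.66 ± 0.20. Chgb (FDR 0.0832), Grb10 (FDR 0.162), Nrn1 (FDR 0.0589) and Tmem150c (FDR 0.0614) were not called with a replicate block in the 6-month libraries alone.

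Hlf was not alone among the clock genes. Of 18 genes of the circadian clock and of its PAR bZIP outputs 7 fell and 3 rose (median -0.34). The outputs Tef (-1.18 ± 0.22) and Dbp (-0.73 ± 0.15) fell with Hlf, as did the repressors Per2 (-1.2 ± 0.16), Per3 (-1.35 ± 0.17) and Cry2 (-0.67 ± 0.20). Nfil3, which competes with the PAR bZIP factors for the same sites, rose, from 8.65, 8.47, 9.23 and 8.68 in WT to 10.21, 9.95, 10.30 and 9.87 in rTg4510 (1.32 ± 0.16). Bhlhe40, a repressor of clock genes, rose by 1.86 ± 0.27. The core activators Clock (-0.10 ± 0.066) and Arntl (-0.24 ± 0.10), Nr1d1 (-0.27 ± 0.23) and Per1 (0.52 ± 0.24) did not pass. The hour at which the mice of a pool were killed is not given in the sources used here, and its part in these values was not tested. Leaving out 1 library ended the call of Cry2 (without rTg4510 replicate 3, -0.57). Cry2 (-0.47) was not called after quantile normalization. Dbp was not called with all 32 libraries in the fit.

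Among 21 transcription factors of the microglial lineage 4 rose and 3 fell (median -0.03). Spi1, which encodes PU.1, was at 0.13 ± 0.088, while Maf (-0.92 ± 0.11) and Etv1 (-0.88 ± 0.080) fell with Sall1, and Irf8 rose (0.61 ± 0.10). Nr4a1, an orphan nuclear receptor that is also an immediate early gene, read 9.32, 9.04, 9.79 and 8.91 in rTg4510 and 6.93, 6.63, 7.47 and 7.03 in WT (2.25 ± 0.23). Of 25 immediate early genes 8 rose and 1 fell (median 0.47). The phosphatase gene Dusp2 rose by 1.42 ± 0.37 and Ier5 fell (-0.66 ± 0.17), and the genes of the fastest response, Fos (0.47 ± 0.34), Jun (-0.38 ± 0.19) and Egr1 (0.09 ± 0.18), did not pass. In the TGF-beta pathway 2 of 22 genes rose and 3 fell (median -0.07), where over all genes 11.3% rose and 8.54% fell. Tgfb2 (2.28 ± 0.31) and the receptor gene Acvrl1 (0.68 ± 0.13) rose, while the main microglial ligand Tgfb1 was at -0.07 ± 0.088 and the receptor Tgfbr1 at -0.23 ± 0.062, and the co-receptor genes Tgfbr3 (-1.22 ± 0.21) and Eng (-0.90 ± 0.083) and the latent binding protein gene Ltbp4 (-1.18 ± 0.30) fell. Of 15 purinergic genes P2ry2 (1.6 ± 0.22) and P2rx4 (1.11 ± 0.077) rose, and P2ry13 fell. Single libraries decided the calls of Irf8 (without rTg4510 replicate 3 or WT replicate 1, 0.56 to 0.57) and Ier5 (without rTg4510 replicate 1 or WT replicate 4, -0.58 to -0.53). Ltbp4 (FDR 0.122) and Tgfbr3 (FDR 0.0825) were not called with a replicate block in the 6-month libraries alone. Irf8 (0.52) and Ltbp4 (-0.78) were not called after quantile normalization. Ier5 was not called with all 32 libraries in the fit.

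Heat shock genes fell in part. Of 19 chaperone genes 4 fell and 1 rose (median -0.24). Hspa1b read 8.61, 7.59, 8.79 and 7.43 in rTg4510 and 10.43, 9.55, 11.05 and 9.35 in WT (-1.99 ± 0.41). Replicates 1 and 3 were the higher ones in both genotypes, and every rTg4510 library lay below every WT library. Hspa1a, a near-identical copy, was at -1.68 ± 0.39, Dnajb1 at -0.82 ± 0.20 and Hsph1 at -0.80 ± 0.18. The mitochondrial co-chaperone Hspe1 rose (1.26 ± 0.078). Hsph1 (FDR 0.107) was not called with a replicate block in the 6-month libraries alone.

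Secreted factors and matrix genes included the largest bounds above. Of 25 such genes 12 rose and 3 fell (median 0.71). Igf1, a growth factor for neurons and oligodendrocytes, read 7.63, 7.67, 7.72 and 7.61 in rTg4510 and 5.58, 4.98, 5.63 and 5.34 in WT (2.28 ± 0.22). Mmp12 rose by 1.73 ± 0.22 and fibronectin, Fn1, by 1.13 ± 0.18, while Loxl2, a relative of Lox (-1.68 ± 0.48), the inhibitor Timp3 (-1.36 ± 0.41) and the gelatinase Mmp9 (-1.22 ± 0.17) fell. Of 25 genes at or near loci of Alzheimer risk 5 rose and 1 fell (median -0.08). Beyond Apoe and Trem2 these were Pld3 (1.55 ± 0.066), Grn, which encodes progranulin (1.01 ± 0.053), Sorl1 (0.77 ± 0.096) and, downwards, Cass4 (-1.44 ± 0.10). Bin1 (-0.34 ± 0.051), Cd33 (-0.13 ± 0.078) and Inpp5d (-0.08 ± 0.053) did not pass. The call depended on a single library for Timp3 (without rTg4510 replicate 3 or WT replicate 1, -1.17 to -1.14). Loxl2 (FDR 0.130) was not called with a replicate block in the 6-month libraries alone. Grn (0.48) was not called after quantile normalization. Loxl2 and Timp3 were not called with all 32 libraries in the fit.

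The transgene is made in neurons, and the genes it draws on were read in the microglia. Mapt, the mouse tau gene, read 4.04, 4.43, 4.44 and 4.91 in rTg4510 and 4.80, 4.20, 4.77 and 5.14 in WT (-0.27 ± 0.42), and the groups overlapped. Whether reads of the human tau sequence would have been counted under Mapt is not given in the sources used here. Prnp, the prion protein gene whose regulatory sequences are part of the tau construct, rose (1.19 ± 0.36, FDR 0.0140), with 8.18, 8.24, 7.97 and 8.09 in rTg4510 and 7.11, 6.51, 7.07 and 7.01 in WT. It was not called with all 32 libraries in the fit (FDR 0.176) or without replicate 2 of both genotypes. Prnp was not a DEG at 2, 4 or 8 months.

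Neighbouring protein-coding genes on chromosome 12 fell together. The transactivator of this model has been reported to lie there with a deletion of host sequence. In GRCm38 Wdr60 spans chr12:116206261-116263046, Esyt2 chr12:116279283-116390935 and Ncapg2 chr12:116405351-116463532. Wdr60 encodes a dynein subunit, Esyt2 a tether of membrane contacts and Ncapg2 a condensin subunit. Esyt2 read 5.15, 5.29, 5.12 and 5.21 in rTg4510 and 5.86, 5.77, 5.74 and 5.87 in WT (-0.62 ± 0.076), Wdr60 fell with -1.01 ± 0.10 and Ncapg2 with -0.82 ± 0.15, and in none of these 3 genes did the groups overlap. The neighbour before them, Zfp386 (chr12:116047714-116063231), was at -0.17 ± 0.13 and not called. Between Esyt2 and Ncapg2 the long non-coding RNA gene D430020J02Rik was at -0.07 ± 0.30 and not called. After Ncapg2 the pseudogene Gm6750 was at 0.40 ± 0.14 and not called. Wdr60 and Esyt2 were DEGs at 2, 4 and 8 months as well, with -0.73 ± 0.10 and -0.93 ± 0.076 already at 2 months. The next protein-coding gene after them in the table, Rapgef5 (chr12:117516526-117759737), also fell (-1.17 ± 0.063). Whether these mice carry the deletion was not tested. Ncapg2 (FDR 0.0693) was not called with a replicate block in the 6-month libraries alone. Ncapg2 (-0.57) was not called after quantile normalization.

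Markers of other cell types were, as far as they changed, mostly lower in rTg4510. Over all genes, the tenth with the smallest signal also had a negative median log2 fold change (-0.51). The part of this in the values of the markers was not tested. The summed linear signals of the markers are given because neutrophils and monocytes carry CD11b and pass the same capture. Of 12 neutrophil markers 9 fell and 0 rose (median -1.84), and their sum was 1196 to 1296 in the rTg4510 libraries and 1403 to 2200 in the WT libraries. S100a8, a calcium-binding protein of neutrophils, read 5.86, 5.58, 6.08 and 5.21 in rTg4510 and 7.02, 8.28, 7.71 and 8.35 in WT (-2.15 ± 0.38). Mpo, the myeloperoxidase gene, was at least 2.14-fold lower and Elane, the neutrophil elastase gene, at least 1.59-fold lower, both with rTg4510 near the floor. In the fit of the 6-month libraries alone with a replicate block 1 of these markers fell. The sum of 11 oligodendrocyte markers was 213 to 301 in rTg4510 and 357 to 470 in WT, of which 0 were called (median -0.85). In a fit of the 6-month libraries alone 4 of the oligodendrocyte markers fell, and 5 did when that fit had a replicate block. The sum of 10 astrocyte markers was 775 to 971 in rTg4510 and 1264 to 1501 in WT, and Gfap alone rose (1.52 ± 0.30) while Aqp4 (-1.22 ± 0.41) and Slc1a3 (-0.66 ± 0.078) fell. Snap25 (-1.42 ± 0.46) was the 1 of 6 neuronal markers that fell. The sum of 5 ependymal and choroid plexus markers ranged from 601 to 1895 in rTg4510 and from 1572 to 4625 in WT, and 0 of them were called. Leaving out 1 library ended the calls of Elane (without rTg4510 replicate 3 or 4 or WT replicate 2 or 4, -2.20 to -1.73), Aqp4 (without rTg4510 replicate 3 or 4 or WT replicate 4, -1.14 to -0.89) and Snap25 (without rTg4510 replicate 1, 3 or 4 or WT replicate 1 or 2, -1.33 to -1.23). Aqp4 (FDR 0.164), Elane (FDR 0.127), Gfap (FDR 0.108), Mpo (FDR 0.157), S100a8 (FDR 0.0731) and Snap25 (FDR 0.103) were not called with a replicate block in the 6-month libraries alone. Elane (-1.77), Mpo (-1.82) and Snap25 (-1.08) were not called after quantile normalization.

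Some markers of other lineages rose. The endothelial gene Flt1 (1.89 ± 0.24), the NK cell gene Klrb1c (2.31 ± 0.25) and the mural genes Cspg4 (at least 4.49-fold higher) and Abcc9 (1.06 ± 0.14) rose while most genes of their lists did not. Pecam1 (-2.12 ± 0.14), Ly6c1 (-1.07 ± 0.34) and Cdh5 (-0.86 ± 0.27) of endothelial cells fell, as did Gzma (-1.70 ± 0.45) and Nkg7 (-1.62 ± 0.50) of cytotoxic lymphocytes and Vtn (-1.02 ± 0.33) of mural cells. Among 7 B cell markers Cd22 rose and Ighd fell (-1.21 ± 0.14), and among 4 erythroid markers Alas2 fell (-0.98 ± 0.33). Of 10 markers of border macrophages 3 fell, led by Stab1 (-0.85 ± 0.11) and Lyve1 (-0.84 ± 0.22). Of 9 monocyte markers 2 rose and 4 fell (median -0.42). Their sum was 392, 323.5, 331 and 231 in rTg4510 and 300.5, 288, 300.5 and 292 in WT, so that 3 of the 4 rTg4510 libraries lay above all WT libraries. Vcan (1.38 ± 0.51) and Fn1 rose, Chil3 (-1.45 ± 0.48), Plac8 (-1.36 ± 0.42) and Ly6c2 (-0.86 ± 0.33) fell, and Ccr2 was at 0.21 ± 0.25. With a replicate block Vcan (FDR 0.0591) and Ly6c2 (FDR 0.0927) were not called, and 5 endothelial, 3 mural and 2 neuronal markers fell. The part of these cells in the changes of the other lists was not tested. Single libraries decided the calls of Ly6c1 (without rTg4510 replicate 3 or 4 or WT replicate 1, -0.94 to -0.88), Cdh5 (without rTg4510 replicate 4 or WT replicate 1, -0.76), Nkg7 (without rTg4510 replicate 4, -1.31), Vtn (without rTg4510 replicate 3 or WT replicate 1, -0.90 to -0.83), Alas2 (without rTg4510 replicate 2 or 3 or WT replicate 1 or 2, -0.96 to -0.71), Vcan (without rTg4510 replicate 1, 2 or 3 or WT replicate 2, 3 or 4, 0.95 to 1.47), Chil3 (without rTg4510 replicate 1 or 4 or WT replicate 2 or 4, -1.37 to -1.18), Plac8 (without rTg4510 replicate 4 or WT replicate 4, -1.20 to -1.12) and Ly6c2 (without rTg4510 replicate 1 or 4 or WT replicate 1, 2 or 4, -0.92 to -0.49). Abcc9 (FDR 0.0667), Alas2 (FDR 0.0615), Chil3 (FDR 0.197), Ly6c1 (FDR 0.107), Ly6c2 (FDR 0.325), Lyve1 (FDR 0.0903), Nkg7 (FDR 0.113), Plac8 (FDR 0.143) and Vcan (FDR 0.276) were not called with a replicate block in the 6-month libraries alone. Alas2 (-0.58), Cdh5 (-0.56), Ly6c1 (-0.85), Ly6c2 (-0.66), Nkg7 (-1.26), Plac8 (-1.05) and Vtn (-0.72) were not called after quantile normalization. Alas2, Cdh5, Chil3, Ly6c1, Ly6c2, Vcan and Vtn were not called with all 32 libraries in the fit.

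**Figure D4:**
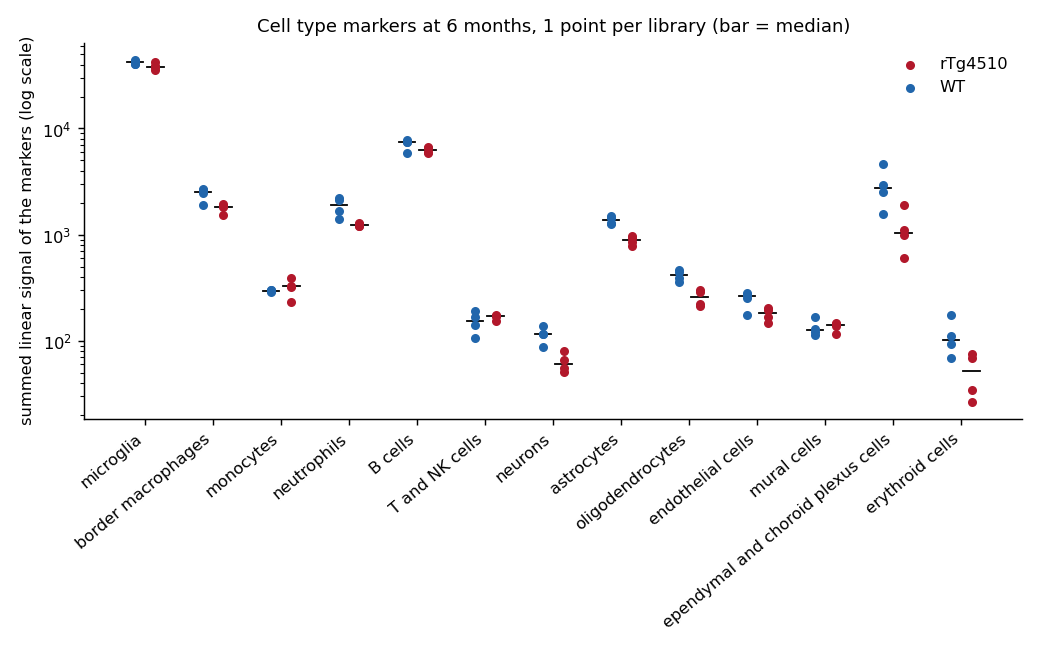
Summed linear signal (vertical axis, log scale) of 13 lists of cell type markers, 1 point per library, rTg4510 red and WT blue, with a black bar at the median. Microglia markers exceed those of every other list in all 8 libraries, and oligodendrocyte, astrocyte, neuron and neutrophil markers are lower in all rTg4510 libraries than in all WT libraries.

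The genotype effect at 6 months was also compared with that at the other ages, with which it shares no library. Against 2 months, where 368 genes were DEGs, the effect differed for 1652 genes (8.89%), and it was higher at 6 months for 1100 and lower for 552 (limma, interaction contrast, FDR under 0.05 and more than 1.5 fold). Cst7 had a log2 fold change of 1.32 ± 0.21 at 2 months, and the difference was 3.57 ± 0.29. For Hlf it was -0.66 ± 0.21 at 2 months, and the difference was -3.15 ± 0.30. Against 8 months the effect differed for 0 genes, with 0 also from the moderated test, a lowest FDR of 0.347 and 841 genes (4.52%) at an unadjusted p under 0.05. The median SE of that difference was 0.251 on the log2 scale. The genes whose effect was highest at 6 months against 2 months were Lox (4.14 ± 0.31), Dkk2 (3.75 ± 0.31), Gm18151 (3.69 ± 0.95), Apoc1 (3.6 ± 0.33) and Cst7, and those whose effect was lowest were Gm11524 (-4.32 ± 0.76), Ccbe1 (-4.17 ± 1.03), Gabrb1 (-3.48 ± 0.70), an unnamed gene (-3.28 ± 0.76) and Hlf.

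Against 4 months the effect differed for 29 genes (0.156%), higher at 6 months for 7 and lower for 22. Of the latter, 6 were members of the list of 30 mitosis genes. Mki67 rose at 4 months (0.83 ± 0.16) and fell at 6 months, a difference of -1.96 ± 0.21 (FDR 1.91e-04). A difference of the same sign was found for Top2a (-1.91 ± 0.27), Kif11 (-1.68 ± 0.28), Kntc1 (-1.75 ± 0.25), Birc5 (-1.83 ± 0.36) and Dtl (-2.22 ± 0.39), which marks replicating chromatin. At 4 months each of these had a positive log2 fold change, as the plot of effects by age shows. The most negative difference was that of Pimreg (-3.77 ± 0.72), a mitotic gene. Dpep2, a dipeptidase of leukotriene metabolism, turned the other way (2.36 ± 0.38), from -1.48 ± 0.28 at 4 months to 0.88 ± 0.25 at 6 months, and 4933416M07Rik (2.75 ± 0.47), the channel gene Hcn3 (2.49 ± 0.49), Akr1c13 (1.56 ± 0.32) and Lrguk (1.04 ± 0.21) had positive differences as well. The number of single 6-month libraries without which the difference was not called was 8 of 8 for Lrguk, 7 for Akr1c13, 7 for Birc5, 6 for Hcn3, 5 for Pimreg, 4 for Dtl and 2 for 4933416M07Rik. Akr1c13 was also lost after quantile normalization (FDR 0.0503) and with all 32 libraries (FDR 0.503), and Lrguk with moderated variances (FDR 0.0661). Of 30 mitosis genes 9 rose at 4 months and 0 rose at 6 months. The count of 29 genes was 11 in the fit with a replicate block, where Pimreg, Dtl, Birc5, Hcn3, Dpep2 and Lrguk were among those lost (FDR 0.0554 for Dpep2 to 0.206 for Lrguk), 13 after quantile normalization, 6 with all 32 libraries and between 7 and 33 when single libraries of 6 months were left out. Dpep2 (FDR 0.0626) was not called with a replicate block in the 6-month libraries alone.

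Of the 3689 DEGs, 1472 were DEGs at 4 and 8 months but not at 2 months, 314 were DEGs at all 4 ages, and 1029 at 6 months alone. The last included more down-regulated (718) than up-regulated genes (311), with a median SE of 0.265 against 0.179 over all DEGs. Since the effect itself differed from that at 4 months for 29 genes and from that at 8 months for 0 genes, passing the threshold at 6 months alone does not show a difference between ages. Besides the 13847 protein-coding genes, of which 1272 rose and 1037 fell, the table held 2828 pseudogenes, of which 667 rose and 284 fell. Among 846 long non-coding RNA genes 58 rose and 105 fell. Malat1 read 20.60, 20.52, 20.64 and 20.85 in rTg4510 and 21.16, 21.15, 21.38 and 21.24 in WT (-0.58 ± 0.085), a difference just below the threshold of 1.5 fold.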

How the data were processed

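RNA-seq of CD11b-captured forebrain microglia was analysed. The deposited log2 values are gene-level signals that the authors made by adding up the exon reads of all runs, dropping exons below 10 counts in over 80% of the samples, summarizing the exons of each gene by robust linear regression, and median normalizing, and the build is GRCm38 per the labels. Counts per library are not in the files used here, so depth is unknown, and strand and the treatment of reads that match several genes are not given in the sources used here.

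Groups were taken from the labels. A limma 3.58.1 linear model (R 4.3.3) with 1 mean per genotype and age was fitted to 18588 genes in 28 libraries, without the 4 libraries that the authors dropped for failed quality control (replicate 3 at 4 months and replicate 4 at 8 months of both genotypes), and contrasts were tested with Benjamini-Hochberg adjustment. DEGs had an FDR under 0.05 and more than 1.5 fold. Replicates are called biological in the study, each a pool of mice, so p-values measure the spread between pools. On simulated data for the 6-month comparison 52.9%, 80.3% and 92.4% of changes of 0.8, 1.5 and 3 log2 units were called. The simulation changed 68, 66 and 66 of 18588 genes by these amounts and drew the libraries independently. The data held 3689 DEGs and paired deviations, so that these shares need not hold for them. RefSeq named 17828 genes (95.9%).

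Named genes were the 12 largest increases and 12 largest decreases of protein-coding DEGs whose groups do not overlap and of which neither genotype has all libraries near the floor (3 counts), the 3 largest each way near the floor, the 5 largest interactions each way, Mapt and Prnp, and list members (the 2 largest DEGs each way and others that a pathway needs). Some members that enter the counts of their lists are not reported here by name. D430020J02Rik, Gm11524, Gm6750, Rapgef5 and Zfp386 were named after their values were seen. The libraries compared and the lists were chosen with earlier results of these data known. Same-numbered libraries deviated together from their group means (r = 0.144, 0.137, 0.131 and 0.153 across genes, against -0.127 to 0.0913 for others), and numbers were taken to pair the libraries. Among the others, r was positive between replicates 1 and 2 (0.0649 and 0.0913) and between 3 and 4 (0.0777 and 0.0622). It was negative for the rest (-0.127 to -0.095). In both genotypes the summed linear signal of the immediate early genes was larger in replicates 3 and 4 (310300 to 387400) than in 1 and 2 (222400 to 225800). What sets these replicates apart was not tested. Alternatives were moderated variances, all 32 libraries, the 6-month libraries alone, quantile normalization, a filter at the 25th percentile of mean signal, a replicate block and leaving out libraries. The block within the 6-month libraries alone was added after the data were seen. It leaves 3 residual degrees of freedom, against 20 in the main fit, with median residual SDs of 0.188 and 0.232. Whether a call lost there reflects the pairing or the fewer degrees of freedom was not tested. Python 3.11.15, numpy 2.4.6, pandas 2.3.3 and matplotlib 3.10.9 were used.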

Additional observations from a re-analysis of the deposited data

Results flagged for a closer look

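Among 116 groups of 4 libraries examined, 6 had a library far from the other 3, where chance gives such a gap in about 1 group in 20. The gap took 0.911 of the range for Ctse in WT (lowest library), 0.833 for Cxcl14 in rTg4510 (highest), 0.895 for Cxcl14 in WT (lowest), 0.948 for Gm11524 in rTg4510 (highest), 0.873 for Klrd1 in rTg4510 (lowest) and 0.944 for Spp1 in WT (lowest). In each of these genes the genotypes did not overlap, which for all but Gm11524 was a condition of their choice.

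The genotype effect differed between 6 and 2 months for 1652 genes and between 6 and 4 months for 29 genes by the interaction contrast. Against 2 months the difference in log2 fold change was 4.14 for Lox, 3.75 for Dkk2, 3.69 for Gm18151, 3.602 for Apoc1 and 3.57 for Cst7. It was -4.32 for Gm11524, -4.17 for Ccbe1, -3.48 for Gabrb1, -3.28 for an unnamed gene and -3.15 for Hlf. Lox and Dkk2 in WT and Gabrb1 in rTg4510 were near the floor, so that their fitted differences depend on it.

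Against 4 months the difference was 2.75 for 4933416M07Rik, 2.49 for Hcn3, 2.36 for Dpep2, 1.56 for Akr1c13 and 1.04 for Lrguk. It was -3.77 for Pimreg, -2.22 for Dtl, -1.96 for Mki67, -1.91 for Top2a and -1.83 for Birc5.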

How the results depend on the processing

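The number of DEGs was 2870 to 3815 under the other settings but for the replicate block in the libraries of 6 months alone. With that block, which leaves 3 residual degrees of freedom, it was 2365 with 841 down-regulated. With the replicate block in all 28 libraries it was 3712, and leaving out libraries gave 3232 to 3658. Of the 3689 DEGs, 2245 were also called with the block at 6 months alone and 3164 after quantile normalization. The genes whose effect differed from that at 2 months numbered 739 with all 32 libraries and 1452 to 1702 without single libraries. Against 4 months they numbered 6 with all 32 libraries, 13 after quantile normalization, 7 with the filter, 11 with the replicate block, and 7 to 33 without libraries of 6 months, with 9 without rTg4510 replicate 1, 18 without rTg4510 replicate 2, 16 without rTg4510 replicate 3, 13 without WT replicate 3 and 7 without WT replicate 4. Against 8 months they numbered 0 under all settings run. The causes were not tested. Of 5499 values of named genes over 19 settings 0 changed sign while called, 325 were no longer called and 40 were called anew. Of 2014 counts over lists 219 moved by more than 1.5 times, most of them counts of few genes. Of 230 called named genes 5 were not called at 6 months with the replicate block in all 28 libraries (Hcn3 and 4 given in the report), 52 with the block in the libraries of 6 months alone, 25 with those libraries and no block, 29 after quantile normalization and 24 with all 32 libraries. Quantile normalization also moved 7 values that were called under both by more than 1.5 times, toward 0 for Tyrobp, Ctsb, Ftl1 and Cd14 (1.31 to 0.71 for Tyrobp) and away from it for Tmem119, Selplg and Ier5. Depth is unknown, and low signals limit the precision.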
